A study of Mus musculus with 50 samples.

Results

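The ERBB receptors and their ligands were followed in the transcriptomes of 50 mammary gland (MG) tumors. The members are the 4 receptor genes Egfr, Erbb2, Erbb3 and Erbb4 and the 6 ligand genes Areg, Ereg, Hbegf, Tgfa, Nrg1 and Btc. They were found by gene name, and each of the 10 names matched a single gene among the 37701 genes measured. Expression was measured as RPKM, the reads of a gene scaled to its length and to the size of the library, so that levels can be compared between genes.

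The ERBB family consists of receptor tyrosine kinases that pair with each other after a ligand has bound, and the paired receptors switch on the RAS/ERK and PI3K/AKT cascades. EGFR binds amphiregulin (Areg), TGF-alpha (Tgfa) and the EGF-like ligands epiregulin (Ereg), betacellulin (Btc) and HB-EGF (Hbegf), of which Ereg, Btc and Hbegf also bind ERBB4. Neuregulin 1 (Nrg1) binds ERBB3 and ERBB4. ERBB2 has no known ligand of its own and acts as a partner, whereas ERBB3 has little kinase activity and depends on one. In the mammary gland amphiregulin carries the estrogen signal for duct growth, and ERBB2 is amplified in part of human breast cancers.

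All tumors came from female p53R270H/+WAPCre mice that entered the experiment at an age of 8 weeks. WAPCre, driven by a milk protein promoter, switches on the heterozygous p53 mutation in the mammary epithelium, and vehicle animals carried it as well. The 5 groups of 10 tumors were injected repeatedly, until a tumor had formed, with IGF1, X10, glargine, insulin or vehicle alone. Glargine and X10 are insulin analogues that both bind the IGF1 receptor more strongly than insulin does, although glargine is quickly broken down in the body to products that bind it less. Tumors were collected at 1 cm3, 24 h after the final dose, and the authors chose EMT-like tumors with a latency near the median of their group. The vehicle tumors are titled untreated in the labels. Doses were not given in the sources used here. Tumors are named by their group and the number in their title, read here as the mouse number.

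Library sizes were between 26.6 and 51.9 M reads. The mesenchymal marker Vim had a median of 3812 RPKM, while the epithelial markers Epcam and Cdh1 had medians of 4.75 and 6.56 RPKM. The epithelial markers were not at 0 in any tumor, and 6 tumors stood apart by high levels of them. These were vehicle_174, vehicle_182, vehicle_195, X10_105, X10_111 and glargine_63. Epcam was 302 RPKM in vehicle_174, the highest of the 50. The comparisons with vehicle and the slopes on the epithelial score and on Erbb2, Erbb3 and Areg were also fitted without them.

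Gene positions are those of GRCm38 with bounds from GENCODE M21. Egfr (ENSMUSG00000020122) is at chr11:16752203-16918158 and Erbb2 (ENSMUSG00000062312) at chr11:98412470-98437716, both on the plus strand. Erbb2 overlaps Mien1 on the other strand, so that without strand information reads of the shared stretch cannot be assigned. Erbb3 (ENSMUSG00000018166) is at chr10:128567523-128589652 and Erbb4 (ENSMUSG00000062209) at chr1:68032186-69108059, both on the minus strand. Among the ligands, Ereg (ENSMUSG00000029377, chr5:91074622-91093646), Areg (ENSMUSG00000029378, chr5:91139599-91148432) and Btc (ENSMUSG00000082361, chr5:91357261-91402994, minus strand) share a stretch of chromosome 5 with epigen (Epgn), a further EGFR ligand. Tgfa (ENSMUSG00000029999) is at chr6:86195223-86275719 and Nrg1 (ENSMUSG00000062991) at chr8:31814551-32884029, minus strand.

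Tgfa moved with both Erbb2 and Areg across the tumors, and the 250 bases before the start sites of these genes are shown for that reason. They are RefSeq sequences of GRCm38.p6, plus strand, 5′ to 3′. Capitals mark matches to CACCTG (an E-box bound by the EMT regulators of the ZEB and SNAIL families) or TGACGTCA (the cAMP response element, CRE), both strands searched, so that an E-box may read CAGGTG.
Erbb2, chr11:98412234-98412483: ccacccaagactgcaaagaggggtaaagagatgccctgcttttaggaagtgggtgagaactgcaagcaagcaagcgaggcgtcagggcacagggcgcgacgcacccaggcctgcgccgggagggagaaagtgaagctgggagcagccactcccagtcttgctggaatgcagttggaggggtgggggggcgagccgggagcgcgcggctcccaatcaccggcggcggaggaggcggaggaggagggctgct
Tgfa, chr6:86194972-86195221: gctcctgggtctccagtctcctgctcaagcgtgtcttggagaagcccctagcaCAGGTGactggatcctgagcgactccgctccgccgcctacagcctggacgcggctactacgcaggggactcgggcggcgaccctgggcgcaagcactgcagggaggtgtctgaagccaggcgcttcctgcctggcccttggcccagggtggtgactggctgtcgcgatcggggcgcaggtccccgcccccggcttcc
Areg, chr5:91139349-91139598: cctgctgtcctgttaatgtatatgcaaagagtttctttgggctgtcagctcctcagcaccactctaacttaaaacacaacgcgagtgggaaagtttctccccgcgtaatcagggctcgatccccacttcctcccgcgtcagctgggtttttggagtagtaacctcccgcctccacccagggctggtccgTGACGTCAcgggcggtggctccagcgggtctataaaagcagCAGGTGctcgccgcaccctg
Tgfa and Areg held 1 E-box each, a motif present in 17.2% of the 32851 promoters of this length. Of the member windows not shown, that of Btc also held 1 E-box and those of Egfr and Erbb4 held 0. The Areg window also held 1 CRE, beginning 61 bases before the start site, which 1.55% of the promoters have. The Erbb2 window had neither, and neither TGACTCA (the AP-1 motif, in 4.46% of promoters) nor AACCNGTT (the Grainyhead motif, in 1.79%) was found in the 3 windows. A match of letters describes the window and is not evidence of binding.

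Egfr was the main receptor transcript. Its level was 27.8 RPKM in the lowest tumor, 49.8 in the median tumor and 125 in the highest, and it made up a median of 85.5% of the summed receptor RPKM. Erbb2 had a median of 7.48 RPKM with a range of 3.57 to 34.1. Erbb3 had a median of 0.450 RPKM with a range of 0.108 to 12.4, the widest relative range of the receptors. Erbb4 had the lowest level of the receptors, at 0.055 to 0.405 RPKM. The order was stable within tumors. Egfr exceeded Erbb2 in 49 of 50 tumors, Erbb2 exceeded Erbb3 in 50 of 50, and Erbb3 exceeded Erbb4 in 44 of 50.

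Areg and Hbegf were the most abundant ligand transcripts, with medians of 28.5 and 28.2 RPKM, and their order was not fixed. Areg exceeded Hbegf in 28 of 50 tumors. Areg was the highest of the 6 ligands in 27 tumors, Hbegf in 22 and Ereg in 1. The next 3 ligands had similar medians of 2.90 RPKM (Ereg), 2.64 RPKM (Tgfa) and 2.55 RPKM (Nrg1), and neighbours in this order were reversed in many tumors. Ereg exceeded Tgfa in 28 of 50 tumors and Tgfa exceeded Nrg1 in 22 of 50. Btc was the lowest, with a median of 1.03 RPKM, and was below Nrg1 in 41 of 50 tumors.

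The ligands differed in how evenly they were expressed. Hbegf (ENSMUSG00000024486, chr18:36504927-36515805, minus strand) varied between 7.52 and 71.8 RPKM, a 9.55-fold range. Areg ranged from 0.259 RPKM in IGF1_158 to 177 RPKM in insulin_14. Ereg ranged from 0.017 RPKM in IGF1_132, where it rested on about 3 reads, to 43.8 RPKM in X10_100. Tgfa ranged from 0.085 to 19.1 RPKM and Nrg1 from 0.380 to 26.6 RPKM. On the log2(RPKM + 0.5) scale the SD over the 50 tumors was 1.82 for Areg, 1.76 for Ereg, 1.14 for Tgfa and 0.59 for Hbegf.

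**Figure D1:**
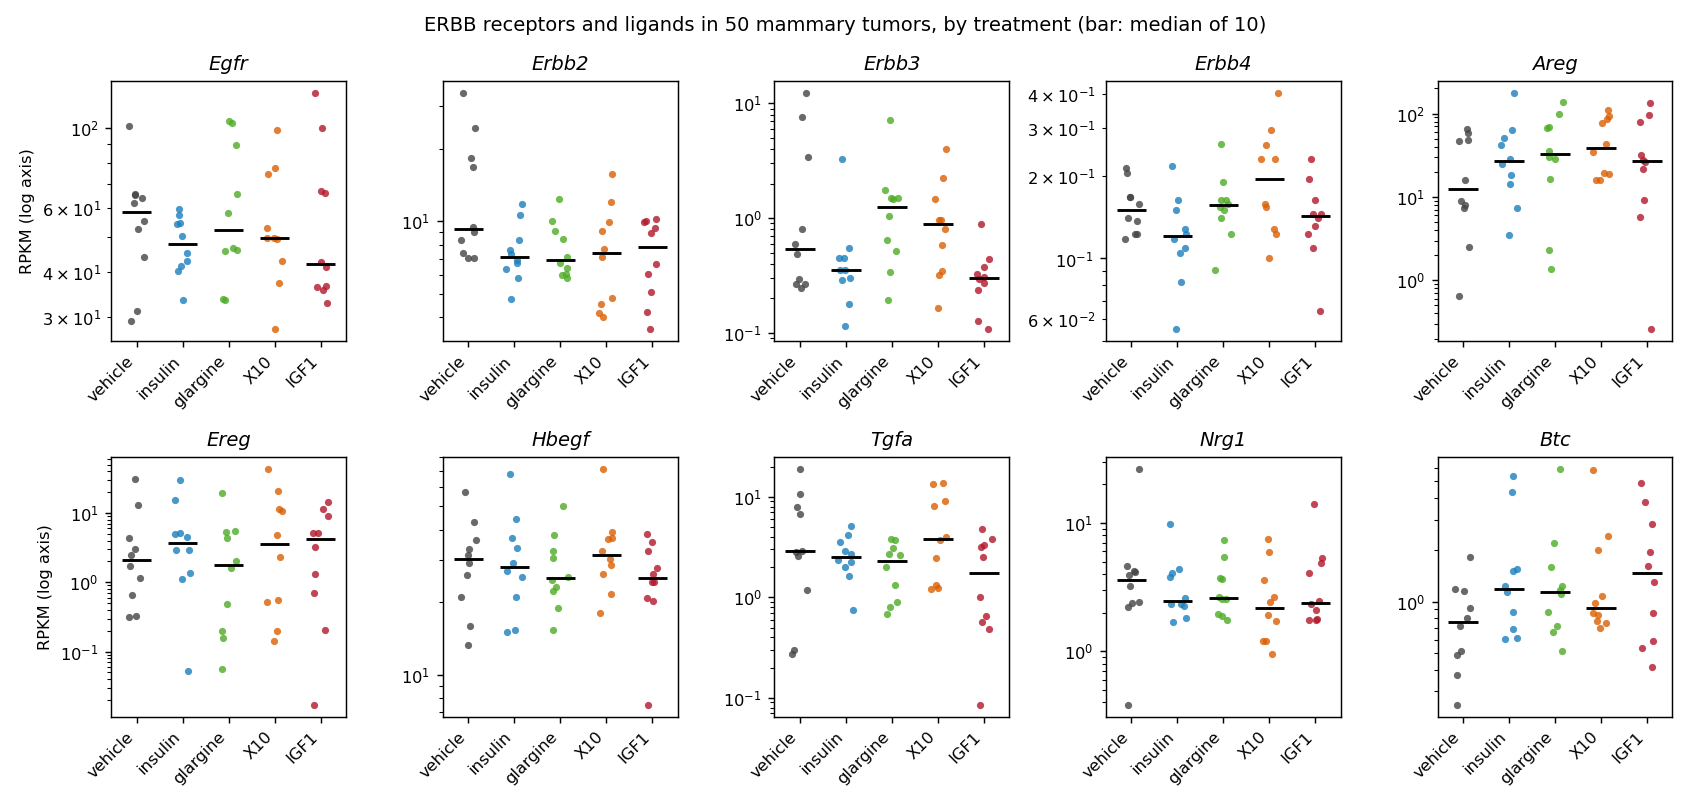
RPKM of the 10 members on log axes, with 1 point per tumor, 5 treatment groups of 10 tumors on the x axis and bars at the group medians. The groups overlap for all 10 genes, and Areg and Ereg have the widest spread on the log scale over the 50 tumors.

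To determine whether chronic treatment changed the members, each treatment was compared with vehicle using limma on log2(RPKM + 0.5), with p-values adjusted over 16733 genes. Of the 10 members, 9 had a mean of at least 0.5 RPKM and were tested, and Erbb4 was below that level. No member passed an adjusted p of 0.05 in any of the 4 comparisons. Few genes did so at all. Of all tested genes, 0% were called in the insulin comparison, 0% in that of glargine, 0.0657% in that of X10 and 0.00598% in that of IGF1. At an unadjusted p under 0.05, 1 member differed in each of the insulin, glargine and X10 comparisons and 2 in that of IGF1. The background at this limit was 11.1%, 6.23%, 11.0% and 8.84% of all genes in the same order. Without vehicle_174 the counts were 1, 1, 2 and 1, against 8.38%, 4.82%, 8.71% and 7.61% of all genes. They were 0, 1, 2 and 0 without the 6 epithelial tumors, against 7.58%, 4.15%, 8.07% and 7.59%.

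Erbb2 was the member with an unadjusted p under 0.05 in each of the 4 treatments, and it was lower than vehicle in all of them. Nrg1 was also lower and Btc higher than vehicle in the 4 treatments, without passing this limit. Erbb2 had a mean of 14.2 RPKM ± 9.17 (SD, n = 10) in vehicle tumors, with a lowest value of 7.05, a median of 9.26 and a highest value of 34.1. In insulin tumors it was 4.78, 7.11 and 11.8 RPKM (lowest, median, highest). In glargine tumors it was 5.83, 6.93 and 12.4 RPKM. The X10 tumors had 4.01, 7.40 and 15.7 RPKM, and the IGF1 tumors 3.57, 7.80 and 10.2 RPKM. The groups overlapped, and 4 or 5 of the 10 tumors of each treatment were below the lowest vehicle tumor.

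The difference of Erbb2 from vehicle on the log2(RPKM + 0.5) scale was -0.68 (SE 0.25) in insulin tumors, with an unadjusted p of 0.0079 and an adjusted p of 0.328 (limma). In glargine tumors it was -0.65 (adjusted p 0.789, limma), in X10 tumors -0.72 (adjusted p 0.280, limma) and in IGF1 tumors -0.76 (adjusted p 0.344, limma). The F test of any difference among the 5 groups gave an unadjusted p of 0.0178 and an adjusted p of 0.300 for Erbb2 (limma), with 0.102% of all genes called and 13.1% at an unadjusted p under 0.05. The 4 comparisons share the same vehicle tumors and are not independent. Among the vehicle tumors, 3 of 10 had an epithelial score (a mean of 12 epithelial marker genes, in SD units) above 1, against 0 of the insulin, 1 of the glargine, 2 of the X10 and 0 of the IGF1 tumors. With this score in the fit the differences became -0.31, -0.50, -0.61 and -0.24 for insulin, glargine, X10 and IGF1. Without vehicle_174 they were -0.52, -0.49, -0.56 and -0.60, and without the 6 epithelial tumors -0.27, -0.31, -0.53 and -0.35, with adjusted p between 0.533 and 0.999 (limma). In bulk tumors, fewer cells of a type and less RNA per cell cannot be told apart.

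Erbb3, a receptor of Nrg1, was also highest in vehicle_174. Its vehicle values were 0.246, 0.543 and 12.4 RPKM (lowest, median, highest), and the IGF1 tumors had 0.108, 0.301 and 0.893 RPKM. The IGF1 difference was -1.06 (SE 0.42, adjusted p 0.428, limma). In insulin tumors it was -0.82, in X10 tumors -0.25 and in glargine tumors -0.05. Without the 6 epithelial tumors these 3 values changed sign, to 0.095, 0.33 and 0.62. With the epithelial score in the fit the IGF1 difference was 0.077, so its sign was not kept, and without the 6 epithelial tumors it was -0.14. In the main fit Egfr stayed within 0.19 log2 units of vehicle in all 4 treatments. Its 95% intervals lay between -0.66 and 0.58 log2 units. In refits under other settings Egfr ranged from -0.36 to -0.14 for insulin and from -0.30 to 0.044 for X10. For glargine the range was -0.035 to 0.15 and for IGF1 -0.21 to -0.018.

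The largest difference of a ligand from vehicle was that of Areg in X10 tumors. Areg was 0.651, 12.5 and 65.3 RPKM in vehicle tumors and 15.9, 38.7 and 109 RPKM in X10 tumors. None of the 10 X10 tumors was below the vehicle median, but 6 of them were within the vehicle range. The difference was 1.504 log2 units (95% interval -0.08 to 3.09, adjusted p 0.480, limma), against 0.90 in insulin, 0.91 in glargine and 0.63 in IGF1 tumors. The SE of these differences was 0.79, the largest of the 9 members. In refits under other settings Areg ranged from 1.37 to 1.96 for X10 and from 0.59 to 1.14 for IGF1. For insulin the range was 0.82 to 1.34 and for glargine 0.82 to 1.34, and none was called.

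Btc was higher than vehicle in all 4 treatments by 0.51 to 0.67 log2 units, with adjusted p between 0.492 and 0.827 (limma). Its vehicle tumors had 0.250, 0.762 and 1.81 RPKM, and the IGF1 tumors had 0.414, 1.46 and 4.89 RPKM. In 7 of 10 tumors of each treatment Btc was above the vehicle mean. Tgfa was -0.89 for IGF1, -0.63 for glargine, -0.30 for insulin and 0.33 for X10. Its vehicle values of 0.274, 2.86 and 19.1 RPKM included those of the epithelial tumors. With the epithelial score in the fit the IGF1 difference of Tgfa was -0.012, and without the 6 epithelial tumors the differences in the same order were -0.15, 0.068, 0.44 and 0.68. Ereg (-0.39 to 0.45), Hbegf (-0.23 to 0.18) and Nrg1 (-0.45 to -0.09) had no unadjusted p under 0.05 in any of the 4 comparisons.

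**Figure D2:**
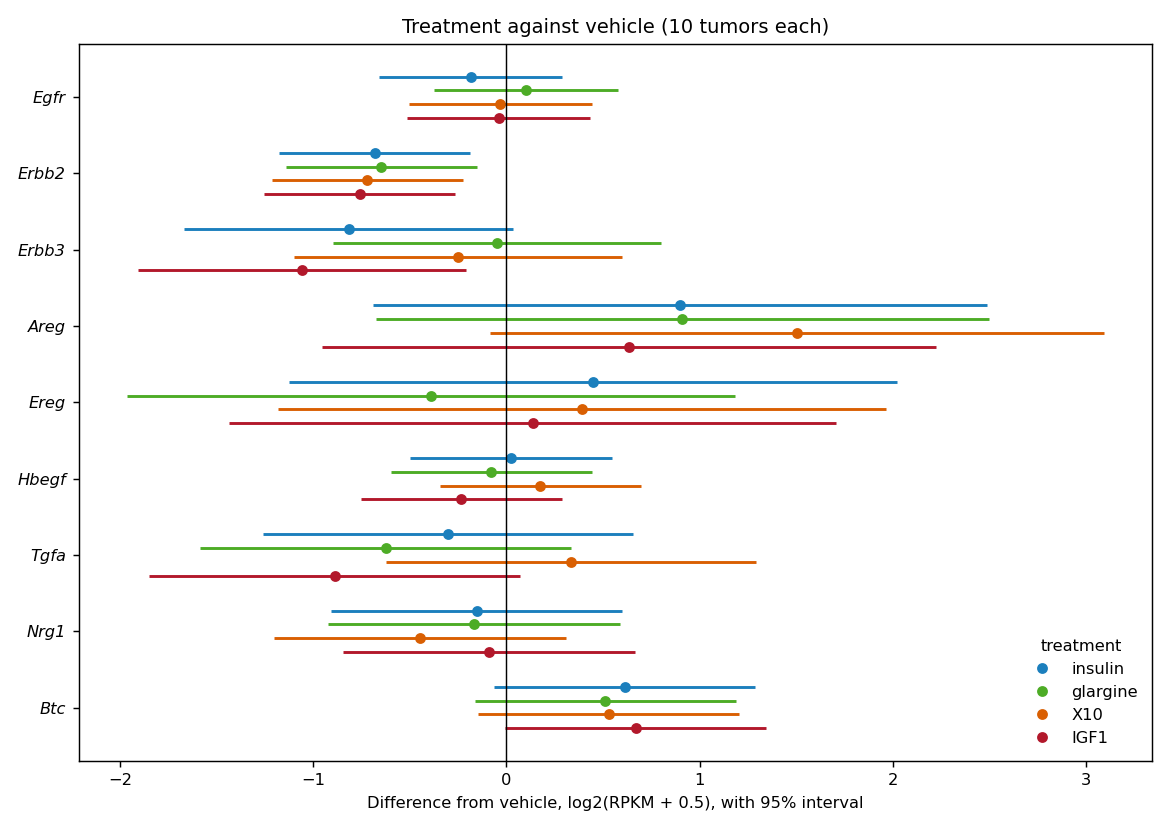
Differences of 9 members from vehicle in log2(RPKM + 0.5), with 95% intervals from limma, for insulin, glargine, X10 and IGF1 (10 tumors each). Erbb2 lies below 0 for the 4 treatments, from -0.65 to -0.76, the Areg and Ereg intervals are the widest, and none of the differences has an adjusted p under 0.05.

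The 20 tumors of X10 and IGF1, were also compared with the 30 other tumors. No member was called, against 0.155% of all genes, and none had an unadjusted p under 0.05 (background 10.5%). Erbb2 was -0.30 (SE 0.16), Erbb3 -0.37 and Areg 0.47 log2 units, and the other 6 members were between -0.16 and 0.24.

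The 4 injected hormones were compared with each other in 6 pairs. Their doses are not known here. The paper describes the doses as equal in glycemic response and unequal in mitogenic potential. The pairs therefore compare groups and not molecules at matched exposure. No member was called in any pair, with 0% of all genes called for glargine against insulin, 0.102% for X10 against insulin, 0.00598% for IGF1 against insulin, 1.78% for X10 against glargine, 0% for IGF1 against glargine and 0% for IGF1 against X10. Before adjustment, Tgfa was lower after IGF1 than after X10 (-1.22, SE 0.48, adjusted p 0.364, limma). Erbb3 was lower after IGF1 than after glargine (-1.01, SE 0.42, adjusted p 0.679, limma). The median epithelial score was -0.80 in IGF1 tumors, -0.05 in X10 tumors and 0.19 in glargine tumors. With this score in the fit Tgfa was -0.53 (unadjusted p 0.196) and Erbb3 -0.18 (unadjusted p 0.368) in these comparisons by limma. Without the 6 epithelial tumors Tgfa was -0.83 (unadjusted p 0.0620, limma) and Erbb3 -0.76 (unadjusted p 0.0037, adjusted p 0.444, limma). The background at an unadjusted p under 0.05 was 11.7% and 6.98% of all genes in these comparisons. No member passed this limit in the other pairs, where the background was 3.96% (glargine against insulin), 11.3% (X10 against insulin), 7.3% (IGF1 against insulin) and 11.6% (X10 against glargine).

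More members were called along the epithelial score than between treatments, and so were more of all genes. A slope on the epithelial score was fitted with treatment as a factor and adjusted over 16721 genes, leaving out the genes of the score. Of the 9 tested members 3 were called, against 11.3% of all genes, and all 3 rose with the score. The same fit called 5.39% of all genes in the upward direction.

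Erbb3 rose by 0.94 log2 units per SD of the score (SE 0.069, adjusted p 5.9e-15, limma). Its level was 2.26, 5.57 and 12.4 RPKM (lowest, median, highest) in the 6 tumors with a score above 1 and 0.108, 0.367 and 3.28 RPKM in the other 44. Only insulin_13, at 3.28 RPKM, was within the range of the former group among the latter. Spearman's rho with the score was 0.89 over the 50 tumors. Without the 6 tumors the slope was 0.72 and remained called (adjusted p 3.8e-05, limma), with 3.70% of all genes called.

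Tgfa rose by 0.72 per SD (SE 0.14, adjusted p 0.00018, limma) and Erbb2 by 0.43 (SE 0.063, adjusted p 2.4e-06, limma). The 6 tumors had 2.71, 12.0 and 19.1 RPKM of Tgfa and 12.1, 16.2 and 34.1 RPKM of Erbb2. The other 44 had 0.085, 2.48 and 9.19 RPKM of Tgfa and 3.57, 7.11 and 18.2 RPKM of Erbb2. Only vehicle_161, at 18.2 RPKM, overlapped the 6 tumors in Erbb2, while 18 of the 44 did so in Tgfa. Without the 6 tumors neither slope was called. That of Tgfa became 0.46 (adjusted p 0.320, limma) and that of Erbb2 0.27 (adjusted p 0.192, limma), so both calls rest on the 6 tumors.

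The other 6 tested members had slopes between -0.11 (Egfr) and 0.42 (Areg) that were not called. Egfr had 29.2, 47.6 and 98.4 RPKM in the 6 tumors and 27.8, 51.4 and 125 RPKM in the others. The Egfr interval was -0.28 to 0.061 per SD.

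**Figure D3:**
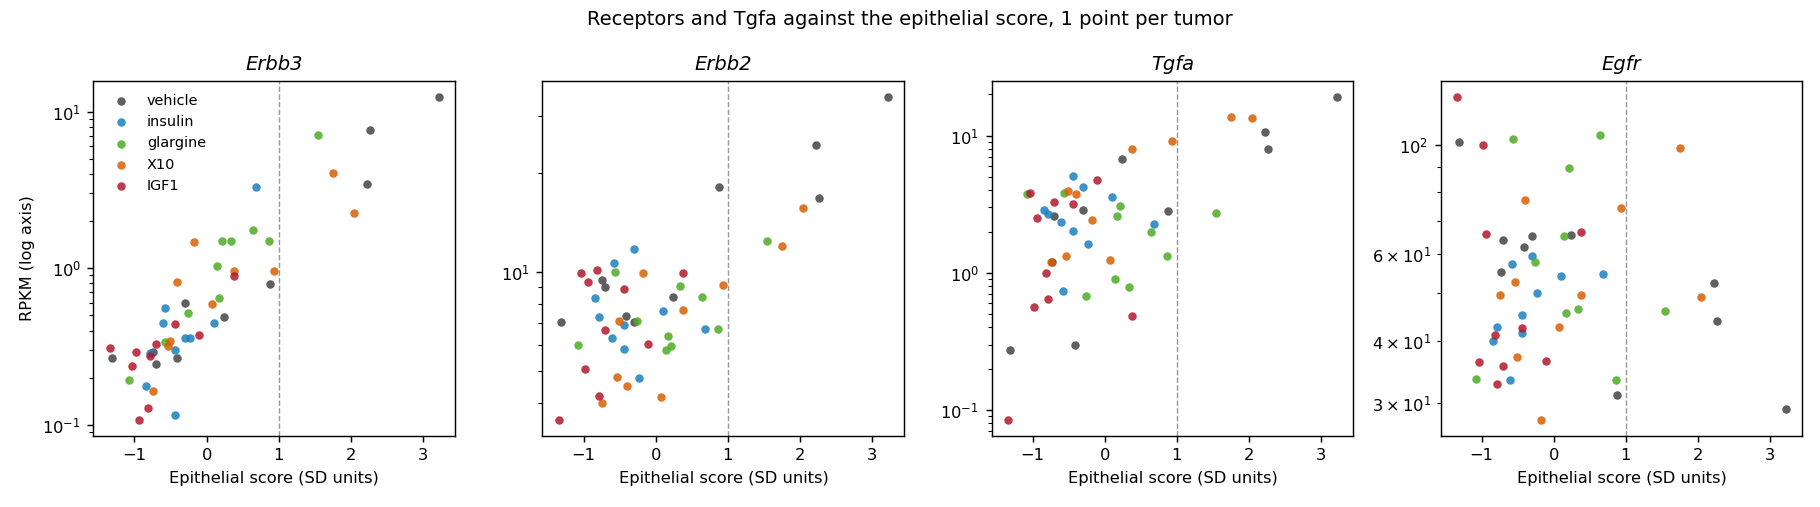
Erbb3, Erbb2, Tgfa and Egfr RPKM (log axes) against the epithelial score in SD units, 1 point per tumor, colored by treatment, with a dashed line at a score of 1. Erbb3 rises along the whole range of the score, Erbb2 and Tgfa have medians of 16.2 and 12.0 RPKM in the 6 tumors to the right of the line against 7.11 and 2.48 RPKM in the others, and Egfr shows no slope that was called.

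Scores for 10 other cell types and programs were tested one at a time. The mesenchymal score (27.7% of all genes called) gave 4 called members. Erbb3 fell by 0.63, Tgfa fell by 0.47 and Erbb2 fell by 0.33 per SD, while Egfr rose by 0.20 (adjusted p 0.0427, limma). The basal score (7.21% of all genes) gave slopes of 0.60 for Erbb3, 0.51 for Tgfa and 0.25 for Erbb2. The Schwann cell score (1.72% of all genes) gave 0.55 for Erbb3, a receptor that Schwann cells depend on. Its gene Sox10 is also expressed by mammary epithelium and was highest in vehicle_182, at 60.03 RPKM. None of these calls remained with the epithelial score in the same fit, where 15.1%, 0.688% and 0.138% of all genes were called. The mesenchymal slope of Egfr was then 0.23 (unadjusted p 0.0251, adjusted p 0.103, limma), not smaller than before, while those of Erbb3, Tgfa and Erbb2 were -0.088, -0.049 and -0.11.

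On the leukocyte score (13.2% of all genes called) Areg and Erbb2 were called. Areg fell by 0.91 log2 units per SD (SE 0.24, adjusted p 0.00545, limma). With the epithelial score in the fit the slope was -0.87 (adjusted p 0.012, limma), with 12.6% of all genes called. Pearson's r was -0.39 and Spearman's rho -0.34 over the 50 tumors, and r was -0.44 without the 2 tumors farthest from the median score. Erbb2 fell by 0.24 on the same score and was not called with the epithelial score (adjusted p 0.102, limma). The score is the mean of 9 genes, of which Lyz2 ranged from 442 to 2359 RPKM and Ptprc from 4.59 to 51.3 RPKM.

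The ERK target score consists of 12 feedback and immediate-early genes such as Dusp6, Spry4 and Etv5 that ERK signaling is known to induce. Of all genes, 17.1% were called. Btc was the only member called and rose by 0.35 per SD (SE 0.10, adjusted p 0.013, limma). Tgfa rose by 0.39 without passing the limit (adjusted p 0.0566, limma) and was called with the epithelial score in the fit (0.36, adjusted p 0.023, limma, 20.6% of all genes called). Egfr had a slope of -0.09 and Areg of 0.36, neither of them called. The fibroblast, endothelial, adipocyte, skeletal muscle and proliferation scores called 0 members by limma. The shares of all genes called were 2.77%, 1.49%, 1.23%, 1.29% and 27.9%, and 2, 3, 1, 0 and 1 of 9 members had an unadjusted p under 0.05, against 14.6%, 15.9%, 12%, 10.3% and 39.2% of all genes. With the epithelial score in these 5 fits 0 members were called by limma, against 2.15%, 1.47%, 1.27%, 1.33% and 17.6% of all genes.

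**Figure D4:**
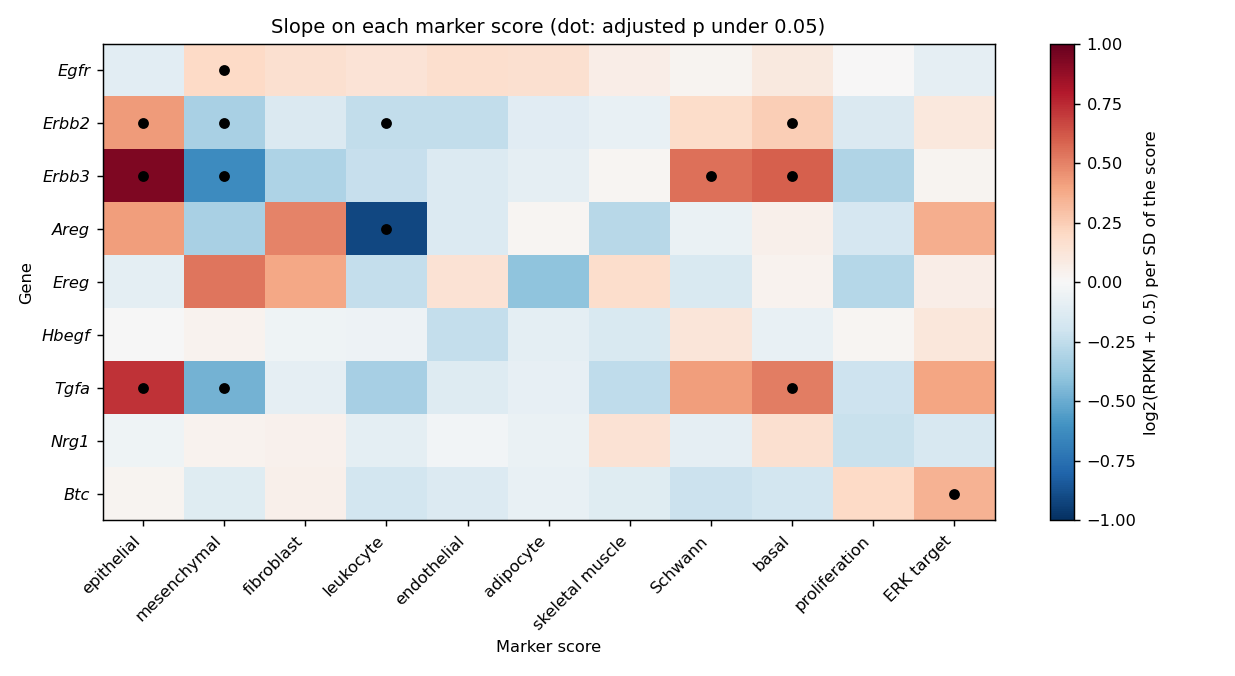
Slopes of 9 members (rows) on 11 marker scores (columns) in log2(RPKM + 0.5) per SD of the score, with red for positive and blue for negative slopes and a dot at an adjusted p under 0.05. Erbb2, Erbb3 and Tgfa share dots at the epithelial, mesenchymal and basal scores, Areg has its dot at the leukocyte score, Btc at the ERK target score, and Hbegf, Ereg and Nrg1 have none.

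The members were then compared with each other across the 50 tumors. The tests are slopes of one member on the log2 level of another with treatment as a factor, adjusted over 16732 genes. The level of the other member was scaled to an SD of 1 over the 50 tumors, so each slope is per SD of that member. Erbb2, Erbb3 and Tgfa were called in all 3 pairings, in either direction of the fit (6.64% of all genes called on Tgfa). The slope of Tgfa on Erbb2 was 0.75 (adjusted p 0.00025, limma, 12.2% of all genes called), and Pearson's r was 0.57 and Spearman's rho 0.40. That of Erbb3 on Erbb2 was 0.66 (adjusted p 0.00027, limma; r 0.62, rho 0.34). That of Tgfa on Erbb3 was 0.56 (adjusted p 0.012, limma; r 0.49, rho 0.33), with 7.55% of all genes called. These are the 3 genes that rise with the epithelial score. Without the 6 epithelial tumors none of the 3 pairings was called by limma. The slope of Tgfa on Erbb2 was then 0.49 (unadjusted p 0.0150, adjusted p 0.117, 5.92% of all genes called), that of Erbb3 on Erbb2 0.15 (adjusted p 0.482) and that of Tgfa on Erbb3 0.054 (adjusted p 0.952, 1.27% of all genes called).

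Areg and Tgfa formed a further pair. The slope of Tgfa on Areg was 0.63 (SE 0.13, adjusted p 0.0016, limma), with 9.46% of all genes called on Areg. Pearson's r was 0.54 and rho 0.48, r was 0.57 after each group was centered on its mean, and r was 0.42 without the 2 tumors farthest in Areg. Without the 6 epithelial tumors the slope was 0.57 and remained called (adjusted p 0.0011, limma), with 8.72% of all genes called. Areg and Tgfa were both lowest in IGF1_158, with 0.259 and 0.085 RPKM, and both second lowest in vehicle_197, with 0.651 and 0.274 RPKM. The values of IGF1_158 rest on about 13 and 23 reads. The same tumors were high in Egfr, at 125 and 101 RPKM. The slope of Egfr on Areg was -0.22 (adjusted p 0.047, limma) and was not called without the 6 epithelial tumors (-0.19, adjusted p 0.101, limma), whereas that of Areg on Egfr was not called (-0.72, adjusted p 0.086, limma, 2.14% of all genes called). The correlation of Egfr and Areg was -0.39 (r) and -0.25 (rho), and r was -0.22 without the 2 tumors with the most extreme Egfr levels.

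The member ligand genes that are neighbours on chromosome 5 did not move as a group. Areg and Ereg had an r of 0.11 and a rho of 0.06, with a slope of Ereg on Areg of 0.18 (adjusted p 0.712, limma). Areg and Btc had a rho of 0.30 and Ereg and Btc of -0.26, and neither pair was called. Slopes on Ereg, Hbegf, Nrg1 and Btc called 0 members by limma, against 0.0777%, 0%, 2.58% and 0.675% of all genes. Among these, Ereg on Nrg1 came nearest (slope 0.70, unadjusted p 0.0050, adjusted p 0.089, limma). Epgn, which is not a member, had a rho of 0.36 with Areg, 0.39 with Ereg and -0.10 with Btc. Its r was 0.45, 0.46 and -0.06 in the same order, given as a description without a test. The tumor vehicle_187 had high levels of both Areg (65.3 RPKM) and Ereg (31.4 RPKM). The tumor insulin_15 had low levels of both, with 3.47 RPKM of Areg and 0.053 RPKM of Ereg. The tumor vehicle_174, in contrast, had 48.6 RPKM of Areg and 0.324 RPKM of Ereg.

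**Figure D5:**
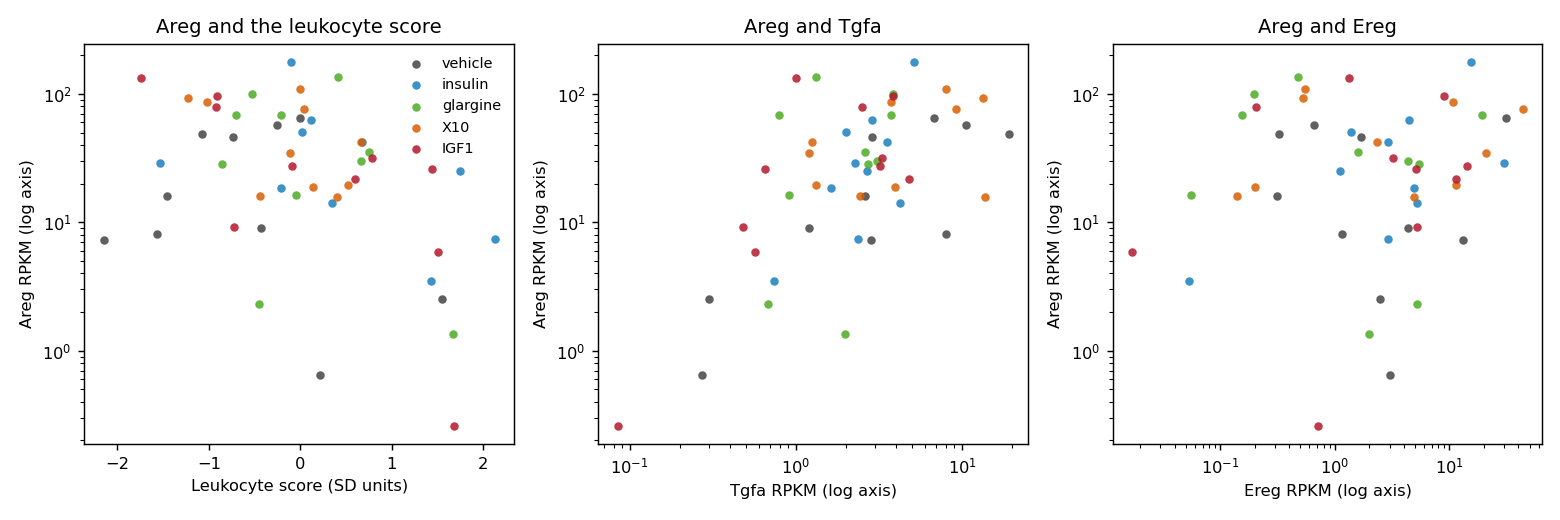
Areg RPKM (log axis) against the leukocyte score in SD units, Tgfa RPKM and Ereg RPKM (log axes), 1 point per tumor, colored by treatment. Areg declines with the leukocyte score (r -0.39), rises with Tgfa (r 0.54) and has an r of 0.11 with its chromosomal neighbour Ereg.

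The 3 genes nearest to each member by Spearman's rho over the 50 tumors are a description of 16724 genes ranked. Erbb3 had the closest companions, Esrp1 (0.914), Ap1m2 (0.897) and Ripk4 (0.892). Esrp1, an epithelial splicing regulator, is itself 1 of the 12 score genes. Tgfa was nearest to Aqp3 (0.822), a glycerol and water channel, Card10 (0.766) and Itpr3 (0.765). Areg was nearest to Slco4a1 (0.782), Draxin (0.769) and the matrix metalloproteinase gene Mmp19 (0.759). Erbb2 was nearest to Dos (0.728), Foxp4 (0.721) and Scrn2 (0.697), and Egfr to Prickle2 (0.721), Fam26e (0.636) and St5 (0.612).

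The remaining members had looser companions, and none had a gene above a rho of 0.7. Btc was nearest to Erc2 (0.679), Npnt (0.661) and Pld5 (0.651). Nrg1 was nearest to Tmem150a (0.618), Gm7700 (0.602) and Gm16276 (0.60). Hbegf was nearest to St8sia2 (0.604), Pfdn1 (0.584) and Sc5d (0.553). Ereg was nearest to D16Ertd472e (0.526), Akr1b3 (0.502) and Tbc1d23 (0.497). For Erbb4 the nearest genes were the ERBB4 ligand gene Nrg4 (0.534), Creb3l3 (0.497) and Gm12925 (0.468), at Erbb4 levels of few reads.

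A list of further ERBB pathway genes (other ligands, ligand shedding, negative regulators, adaptors and partners) matched 34 genes, of which 31 were tested. None was called in a comparison of treatments by limma. Before adjustment, 7 of 31 differed in insulin tumors, 1 in glargine tumors and 4 each in X10 and IGF1 tumors, against 11.1%, 6.23%, 11.0% and 8.84% of all genes. Without vehicle_174 the pathway counts were 4, 1, 2 and 3, where the shares of all genes were 8.38%, 4.82%, 8.71% and 7.61%. They were 3, 0, 2 and 1 without the 6 epithelial tumors, where the shares were 7.58%, 4.15%, 8.07% and 7.59%. Nrd1 (nardilysin, which promotes ligand shedding) was higher than vehicle in the 4 treatments, by 0.40, 0.27, 0.24 and 0.42 log2 units for insulin, glargine, X10 and IGF1. The adaptor gene Nck2 was -0.50 for insulin, -0.34 for X10 and -0.46 for IGF1. Grb7, an adaptor that binds ERBB2, was -1.69 for insulin and -1.88 for IGF1, and Cblc, of the CBL ubiquitin ligases, was -1.51 and -1.57. Without the 6 epithelial tumors Grb7 was -0.19 and -0.38 and Cblc -0.16 and -0.22. For X10, Rhbdf1 (iRhom1, a partner of the sheddase ADAM17) was -0.37 and the sheddase gene Adam10 was 0.40. In the comparison of X10 and IGF1 with the other groups 3 of 31 genes passed this limit, against 10.5% of all genes. They were Rhbdf1 (-0.22), Lrig3 (-0.39) and Shc1 (-0.16).

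Between the hormones, Muc4, a membrane mucin that binds ERBB2, was 0.71 for glargine against insulin, 0.92 for X10 against insulin, -0.66 for IGF1 against glargine and -0.86 for IGF1 against X10 before adjustment. Muc4 was low, with a median of 0.292 RPKM and a highest value of 7.32 RPKM in X10_118. The other genes at this limit were Ptpn1 (-0.23, glargine against insulin), Shc1 (-0.36, X10 against insulin), Cbl (-0.87, IGF1 against insulin), Rhbdf1 (-0.36, X10 against glargine), Sos2 (-0.43) and Cblb (-0.45, both IGF1 against X10). Of the 31 genes, 2 passed for glargine and 2 for X10 against insulin, against 3.96% and 11.3% of all genes. For IGF1, 1 passed against insulin, 1 against glargine and 3 against X10 (7.3%, 6.98% and 11.7% of all genes). For X10 against glargine 1 passed (11.6%).

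On the epithelial score 6 of the 31 pathway genes were called, 4 of them higher, against 11.3% of all genes. Grb7 rose by 1.47 and Cblc by 1.40 log2 units per SD, and Muc4 rose by 0.52. Nrd1 fell by 0.15. Without the 6 tumors 3 of the 31 were called, against 3.70% of all genes: Grb7 (1.09), Cblc (0.97) and Nrd1 (-0.26), while Muc4 (0.51, adjusted p 0.0767, limma) was not. Grb7 and Cblc are thus genes that were lower than vehicle before adjustment and rose with the score. Grb7 was 50.2 RPKM in vehicle_195 and 40.0 RPKM in vehicle_174, with a median of 0.290 RPKM.

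Grb7 also lies beside Erbb2. Of 15 genes around Erbb2, the closest to it by rho over 50 tumors were Pgap3 (0.49), Psmd3 (0.49) and Grb7 (0.43), and r was 0.62, 0.52 and 0.70. Erbb2 itself was highest in vehicle_174 and vehicle_195, at 34.1 and 24.4 RPKM. In vehicle_195 not only Grb7 but also Stard3 (79.0 RPKM), Mien1 (76.3 RPKM) and Med24 (115.2 RPKM) had their highest level of the 50 tumors, whereas Cdk12 was 41st, Nr1d1 27th and Pgap3 9th. In vehicle_174, Pgap3 was at its highest (16.5 RPKM), Grb7 and Mien1 (69.1 RPKM) ranked 2nd of 50 and Psmd3 6th, whereas Med24 was 23rd of 50 and Cdk12 49th. Gene copy number was not measured here, and its part in these levels was not tested.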

How the data were processed

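RNA of 50 tumors was poly-A selected and sequenced by the authors (Ion Proton), aligned to GRCm38 with TopHat2 2.0.10 and Bowtie2 and counted per gene with HTSeq 0.6.1, and RPKM values were deposited. The deposited RPKM had been scaled to a common library of 100 M reads before division by gene length. Library sizes were recovered from the steps between low values. Reads of a member were approximated from its RPKM, the library size and its summed exon length in GENCODE M21. That length can differ from the one behind the deposited RPKM. The authors' test with DESeq2 was not repeated.

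limma 3.58.1 (R 4.3.3) was fitted to log2(RPKM + 0.5) for 16733 genes with a mean of at least 0.5 RPKM, with 5 groups, an intensity trend and Benjamini-Hochberg adjustment. A fold change on this scale understates the change of low genes. Scores are mean z-scores of fixed marker genes, scaled to an SD of 1. On simulated data for X10 against vehicle over 16733 genes, 72.5% of 200 genes changed by 1 log2 unit and 96% of those changed by 2 were recovered, with 5 and 16 false calls. The slope step recovered 87% of 200 genes at a slope of 0.5. The changed genes were picked at random, and the noise of each gene was drawn independently from a normal distribution. The correlation between genes in tumors was thus not simulated. These shares do not give the recovery of a single variable gene such as Areg, with an SD of 1.82.

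The members, lists and tests were chosen with earlier results of these data known. All 10 members were named; of the pathway genes at most 4 per comparison by smallest p; of the Erbb2 neighbours and of the nearest genes the 3 with the highest rho. Slopes on members, and the single tumors and neighbours of Erbb2 set out beyond this rule, were chosen after their values were seen. Each tumor has a title number of its own, read here as another mouse. These numbers run in blocks by group, so any order behind them and treatment cannot be told apart. Of the members, RefSeq promoters were at hand for Egfr, Erbb2, Erbb4, Areg, Tgfa and Btc.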

Additional observations from a re-analysis of the deposited data

Results flagged for a closer look

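In 8 of 50 sets of 10 tumors (10 members in 5 groups), 1 tumor was separated from the others by more than Dixon's 95% critical value on the log2(RPKM + 0.5) scale. Chance gives such a gap in about 1 in 20 sets. Erbb3 was separated in insulin_13 (3.28 RPKM, next 0.555), glargine_63 (7.10 RPKM, next 1.76) and IGF1_145 (0.89 RPKM, next 0.439). The epithelial scores of these tumors were 0.68, 1.55 and 0.38. Nrg1 was separated in vehicle_161 (26.6 RPKM, next 4.63), insulin_37 (9.89 RPKM, next 4.34) and IGF1_145 (14.1 RPKM, next 5.33). The tumor vehicle_161 had low leukocyte (-2.15), fibroblast (-2.92) and endothelial (-2.03) scores, and the slopes of Nrg1 on these scores over the 50 tumors were -0.10, 0.045 and -0.025, none of them called (adjusted p 0.688, 0.932 and 0.943, limma). Hbegf was lowest in IGF1_158 (7.52 RPKM, next 20.2), which also had the lowest Areg, Tgfa and Erbb2 and the highest Egfr of the 50 tumors. The scores of IGF1_158 were -1.341 (epithelial), 1.685 (leukocyte), -0.649 (fibroblast) and 1.549 (endothelial). Btc was highest in glargine_63 (5.95 RPKM, next 2.20), an epithelial tumor.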

How the results depend on the processing

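No paired analysis was possible because the groups share no replicate numbers. No member was called in any treatment comparison under any alternative. The counts of all genes called ranged from 0 to 2 for insulin, 1 to 24 for X10 (11 in the report), 11 to 51 for X10 and IGF1 together (26) and 142 to 364 for X10 against glargine (298). On the epithelial score 1 of 5 members was called at a mean of at least 5 RPKM (11% of all genes), where Erbb3 and Tgfa are not tested, and 1 without the 6 tumors, an alternative chosen after seeing the data; the pathway count was 3 in both. On the other scores 3 members were called with the epithelial score in the fit, against 11: 2 of the 11 calls (Areg, Btc) were left, and Tgfa on the ERK target score was gained.

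Over all members, 56 of 1135 refitted treatment values, 14 refitted epithelial slopes and 12 of 90 other slopes changed sign. For the values given singly these were as follows. With the epithelial score as a covariate, Erbb3 was 0.0047 for insulin, 0.26 for glargine and 0.077 for IGF1, and Tgfa was 0.33 for insulin. With a pseudocount of 0.1, Erbb3 was 0.067 for glargine. Without vehicle_174 (added later), Erbb3 was 0.27 for glargine and 0.072 for X10, and Ereg was -0.073 for IGF1. Without the 6 tumors (added later), Erbb3 was 0.0945 (insulin), 0.615 (glargine) and 0.332 (X10), Tgfa 0.438 (insulin) and 0.0679 (glargine), Ereg -0.138 (insulin), -0.0118 (X10) and -0.453 (IGF1), Hbegf -0.036 (insulin) and Egfr -0.0345 (glargine). Egfr for X10 was 0.030, 0.025 and 0.044 under upper quartile scaling, quantile normalization and library size as a covariate (added later). On the epithelial score, Hbegf was 0.0053 and 0.0032 under these scalings, 0.036 without the treatment term, 0.061 on Cdh1 alone and 0.0081 with library size. Without the 2 farthest tumors, Hbegf was 0.081, Ereg 0.16 and Nrg1 0.099. Without the 6 tumors, Hbegf was 0.22, Ereg 0.81, Nrg1 0.37 and Btc -0.15. Btc was -0.064 without the treatment term and -0.0017 on the 6-gene score. On the basal score, where Erbb2 was called, its slope was -0.034 with the epithelial score. The cause was not tested. Few reads limit the lowest values of Ereg (about 3 reads), Areg (about 13), Tgfa (about 23) and Erbb3 (about 28). They also limit those of Erbb4, for which no count is given because its length behind the deposited RPKM is not known.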
